A study of Mus musculus with 12 samples.

Results

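The mitochondrial carriers described here are the mouse genes named Slc25a followed by a number, taken by their symbol from the tables of both comparisons of the study. They number 44 of the 17505 genes listed in either table. The table of cultured myoblasts and muscle stem cells (MuSCs) lists 43 of them and the table of Nedd4L genotypes 42, and 41 in each passed the filter on low values, 10 normalized counts in 3 or more of the 6 libraries. Slc25a18 did not pass in either table and Slc25a34 did not pass in the first. Slc25a13 and Slc25a34 were measured only in the first table and Slc25a21 only in the second. The study examined how the E3 ubiquitin ligase Nedd4L acts in the quiescence of MuSCs, the resident stem cells of skeletal muscle, and it sequenced RNA of 1000 cells per library after full-length cDNA amplification (SMART-Seq HT).

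The first comparison used WT mice with replicate numbers 4, 5 and 6. From each mouse, MuSCs were sorted by FACS as ITGA7+, Hoechst+ cells lacking CD31, CD45, CD11b and SCA1, and sorted MuSCs of that mouse were also kept in culture with serum and bFGF for 3 days, yielding primary myoblasts. The second comparison used MuSCs freshly sorted through the same gate from 3 WT and 3 Nedd4L-cKO mice, all male and 5 to 6 weeks old. The Nedd4L-cKO mice are Nedd4L fl/fl Pax7 cre/+ on a C57BL/6 background. A Cre driven by Pax7 removes an exon that codes for part of the catalytic domain, so that the transcript is still made without it. The study states as a limit that differentiated myofibers of these mice carry the deletion too. Whether the WT mice carry a floxed or a Cre allele, and the age and sex of the mice in the first comparison, are not given in the sources used here. Replicates of a group are separate mice.

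SLC25 proteins form the largest family of transporters of the mitochondrial inner membrane. Most of them exchange a solute of the matrix for a solute of the cytosol, such as ADP for ATP or 2-oxoglutarate for malate, and so connect oxidative phosphorylation, the urea cycle, one-carbon metabolism and fatty acid oxidation to the rest of the cell. A few members sit elsewhere, such as Slc25a17 in the peroxisome and Slc25a46 in the mitochondrial outer membrane. In muscle the adenine nucleotide translocators are known for supplying ATP to contraction, with Slc25a4 the form typical of heart and skeletal muscle and Slc25a5 the form typical of dividing cells.

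Expression is given as RPM, which here means the deposited normalized count per 1000000 of the mean library total of its table. The totals of normalized counts were 33189802 to 37595659 in the first table and 40323468 to 50687122 in the second, and the read depth behind them is unknown. Log2 fold changes are differences of log2(RPM + 1), a scale that understates the change of genes near 0. A gene was called when limma gave an adjusted p of at most 0.05 after Benjamini-Hochberg adjustment over all tested genes of the table. MuSC markers summed to 5518 to 7786 RPM in the fresh MuSCs and 783 to 852 RPM in the myoblasts, and myoblast markers to 1144 to 1376 and 6104 to 7271 RPM. Not all members followed the sums. Of the MuSC markers, Itga7 and Cdh15 were uncalled, with log2 fold changes in myoblasts of 0.55 and -0.35. Of the myoblast markers, Myog, Myod1 and Des were called higher, while the proliferation markers Mki67 (-0.38) and Top2a (0.73) were uncalled. Mki67 was at 66.5, 99.2 and 110 RPM in fresh MuSCs and 64.6, 102 and 49.2 RPM in myoblasts. In the second table the Nedd4l transcript, the targeted gene, was at 70.2, 96.4 and 66.7 RPM in WT and 30.2, 36.3 and 22.5 RPM in Nedd4L-cKO MuSCs, lower in every Nedd4L-cKO library (log2 fold change -1.37, adjusted p 0.047).

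In freshly sorted MuSCs, 3 carriers made up most of the carriers' counts, a share that is not corrected for transcript length. Slc25a3, the phosphate carrier, and the translocators Slc25a4 and Slc25a5 made up 72.8 to 74.2% of the summed RPM of the 43 carriers in the MuSC libraries and 64.8 to 69.4% in the myoblast libraries. Per length of the canonical transcript, Slc25a5 was highest in MuSCs at 1659 RPM per kb, ahead of Slc25a4 at 383, Slc25a3 at 172, the glutathione carrier Slc25a39 at 92.6 and the peroxisomal carrier Slc25a17 at 83.5 RPM per kb. Myoblasts had the same first 4, with Slc25a5 at 1031 and Slc25a4 at 590.1 RPM per kb, followed by the 2-oxoglutarate carrier Slc25a11 at 93.2 RPM per kb. At the other end, Slc25a13, Slc25a18, Slc25a34, Slc25a45 and Slc25a48 did not exceed 1.61 RPM in any MuSC library. The summed RPM of all 43 carriers was 4740.4, 4766 and 4399 in MuSCs and 5216, 4264 and 4150.1 in myoblasts, and these ranges overlapped. Without Slc25a3, Slc25a4 and Slc25a5 the sum was 1196 to 1244 RPM in MuSCs and 1326 to 1595 RPM in myoblasts, higher in every myoblast library.

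**Figure D1:**
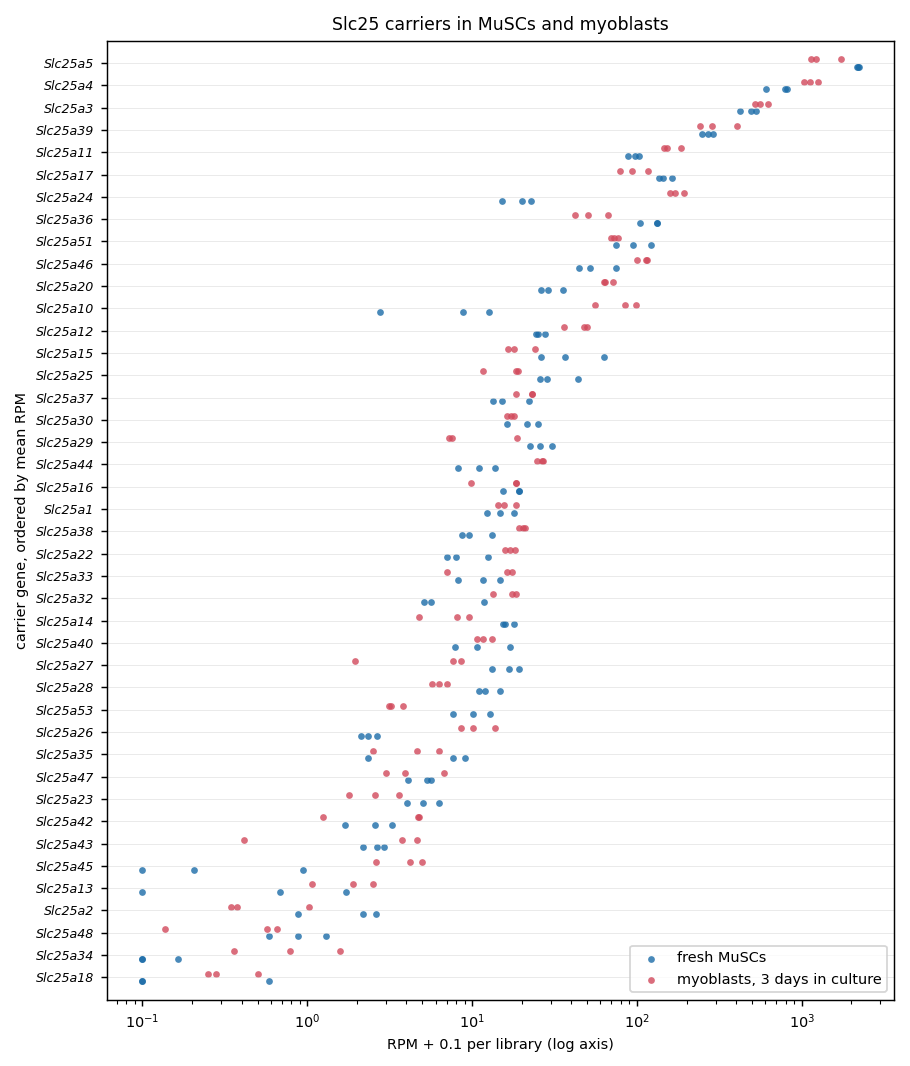
RPM + 0.1 of 42 of the 43 carriers (log axis) in every library of fresh MuSCs (blue) and of myoblasts after 3 days in culture (red), 3 points a group, ordered by mean RPM. All myoblast points of Slc25a24 and Slc25a10 lie to the right of all MuSC points.

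The comparison of myoblasts with MuSCs of the same mice addressed how expression differs between the freshly sorted cell and its cultured progeny. Of the 41 carriers tested, 23 were called, 13 of them higher and 10 lower in myoblasts, beside 42.8% of all tested genes (22.2% higher and 20.6% lower). The 13 include Slc25a45, whose myoblast libraries alone would have met the filter on low values. The carriers moved in both directions: their median log2 fold change was 0.056, beside 0.039 over all genes, and their median absolute log2 fold change was 0.76, beside 0.68. The range ran from -1.48 for Slc25a27 to 3.32 for Slc25a10. With libraries scaled to their own totals, the median of all genes moved by 0.10, and 13 carriers were called higher and 6 lower, the calls of Slc25a15, Slc25a17, Slc25a25 and Slc25a28 being lost. Of the 23 calls, 17 also held with the mouse as a block, where Slc25a2 was called as well. The MuSC libraries of Slc25a2 alone would have met the filter, so that call is not taken as support for a change. The shares of all genes called with own totals or with the block are not given here. Markers of mature myofibers, 15 genes, summed to 541 to 806 RPM in MuSCs and 10504 to 24584 RPM in myoblasts, with 10 of 15 called higher and none at 0. Markers of fibro-adipogenic cells summed to 458 to 622 RPM in MuSCs and 3.096 to 4.63 RPM in myoblasts, where Dpt was at 0. Most of the MuSC sum was Dpt, at 411, 461 and 507 RPM. Dpt, Col1a1 and Dcn were called lower in myoblasts. Ly6a was called higher (log2 fold change 1.35) and Pdgfra was uncalled (0.077), so the list did not move together. The part of these markers and of the myofiber genes in the carriers' changes was not tested. In these bulk libraries, fewer cells that express a gene and less RNA per cell cannot be told apart.

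**Figure D2:**
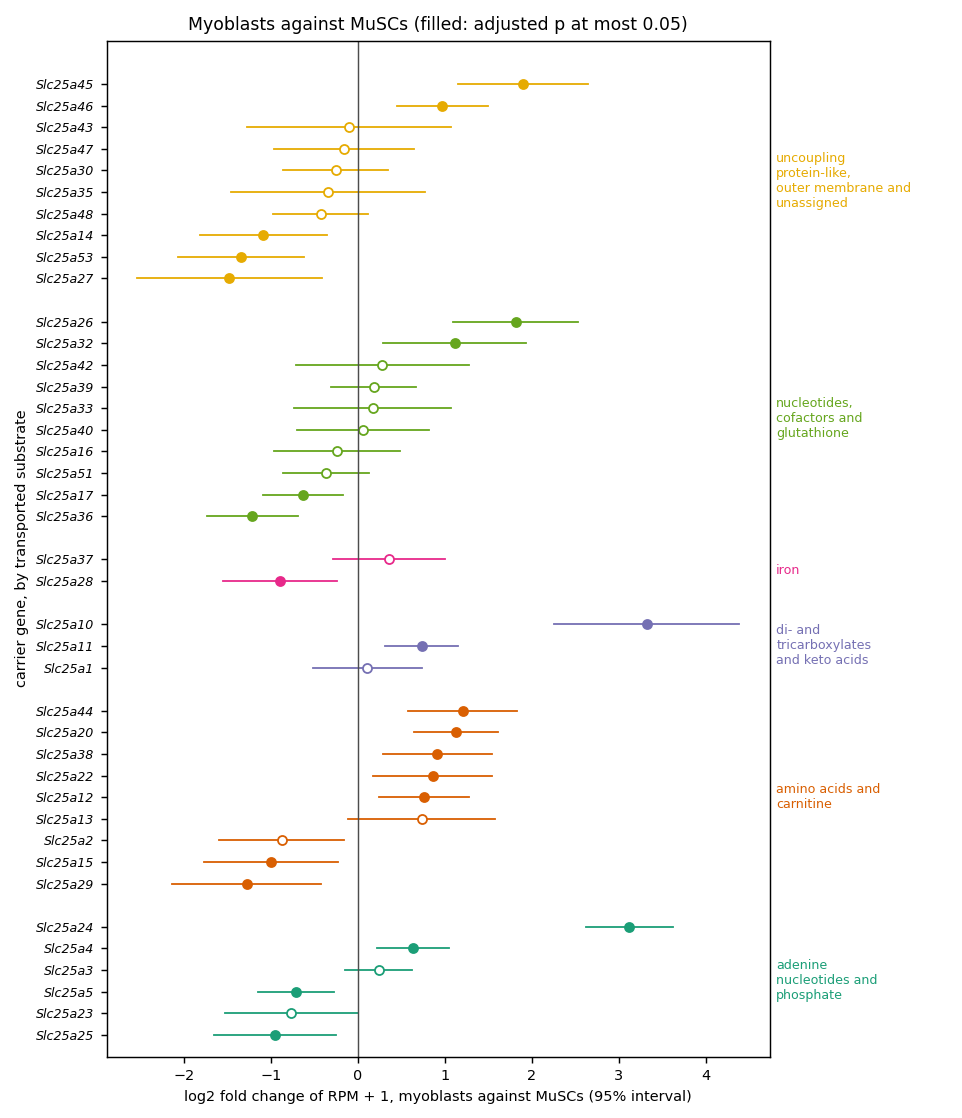
Log2 fold change of RPM + 1 in myoblasts against MuSCs for 40 of the 41 carriers tested, with its 95% interval from limma, grouped by transported substrate, filled points having an adjusted p of at most 0.05. The 2 largest increases are Slc25a10 at 3.32 and Slc25a24 at 3.12, and decreases reach -1.48 for Slc25a27.

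The adenine nucleotide and phosphate carriers did not move together. Slc25a5 (chrX:36059223-36062462 on GRCm39) fell from 2201, 2213 and 2171 RPM in the MuSCs of mice 4, 5 and 6 to 1739.8, 1214 and 1138 RPM in their myoblasts, a level 1.61 times higher in MuSCs (log2 fold change -0.71 ± 0.19 (SE), adjusted p 0.016). Slc25a4 (chr8:46656538-46664325) rose from 791, 815 and 608 to 1257, 1029 and 1129 RPM, 1.54-fold (log2 fold change 0.63 ± 0.18 (SE), adjusted p 0.021). For both translocators every myoblast library lay outside the MuSC range, in opposite directions. The ratio of Slc25a4 to Slc25a5 within a library, which does not depend on the scaling, was 0.359, 0.368 and 0.2799 in MuSCs and 0.722, 0.848 and 0.992 in myoblasts. The ratio was higher in all 3 myoblast libraries, by 1.34 on the scale of log2((RPM + 1)/(RPM + 1)) used for all pairs (two-sided exact permutation p = 0.1, below which 3 against 3 cannot go, and 0.15 adjusted over 9 pairs). The permutation tests do not use the pairing of libraries by mouse. Slc25a3 was at 527, 493 and 424 RPM in MuSCs and 624, 519.6 and 557 RPM in myoblasts, with overlapping groups (log2 fold change 0.24 ± 0.17 (SE), adjusted p 0.29). The call of Slc25a5 was lost without MuSC replicate 5 or myoblast replicate 5 or 6 (adjusted p 0.057, 0.069 and 0.063) and that of Slc25a4 without MuSC replicate 6 or myoblast replicate 6 (0.077 and 0.056). Of the stretches of 31 bases in the Slc25a5 transcripts, 52.5% recur in other genes, mostly its processed pseudogenes, the most similar of which, Gm5560, was at 1.31 to 1.71 RPM in MuSCs and 0.62 to 0.85 RPM in myoblasts. None of those of Slc25a4 do.

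The bases before the annotated starts of both translocator genes and of Slc25a24, described next, are shown because Slc25a4 and Slc25a24 rose and Slc25a5 fell. Each run is the 250 bases before the start in RefSeq on GRCm38.p6, read 5′ to 3′ on the strand of the gene, and capitals mark any of 6 motifs on either strand: the E-box CACGTG, the NRF1 motif GCGCATGCG, the GABP motif CCGGAAG, the CCAAT box, the Sp1 motif GGGCGG and the CRE motif TGACGTCA. None of these motifs contains another.
Slc25a4, chr8:46211063-46211312, minus strand: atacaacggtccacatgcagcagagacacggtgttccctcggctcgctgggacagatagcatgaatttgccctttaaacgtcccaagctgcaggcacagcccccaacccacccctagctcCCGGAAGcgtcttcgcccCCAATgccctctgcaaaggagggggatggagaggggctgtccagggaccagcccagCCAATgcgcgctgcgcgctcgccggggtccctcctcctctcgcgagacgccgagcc
Slc25a5, chrX:36795347-36795596, plus strand: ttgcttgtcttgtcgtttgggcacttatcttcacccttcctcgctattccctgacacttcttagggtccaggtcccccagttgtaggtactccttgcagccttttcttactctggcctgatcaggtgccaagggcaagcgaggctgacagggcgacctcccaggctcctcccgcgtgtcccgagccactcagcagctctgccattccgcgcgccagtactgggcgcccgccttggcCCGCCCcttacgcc
Slc25a24, chr3:109122899-109123148, plus strand: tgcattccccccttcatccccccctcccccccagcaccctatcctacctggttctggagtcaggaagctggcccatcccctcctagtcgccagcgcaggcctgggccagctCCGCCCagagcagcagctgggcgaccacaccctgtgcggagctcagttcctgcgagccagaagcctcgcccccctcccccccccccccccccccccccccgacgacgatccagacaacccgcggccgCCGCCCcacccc
The window of Slc25a4 holds CCGGAAG and CCAAT and no GGGCGG, while those of Slc25a5 and Slc25a24 hold GGGCGG alone of the 6. Among 44 such windows found for 34 of the carriers, 70.5% hold GGGCGG, 47.7% CCAAT, 15.9% CACGTG, 11.4% CCGGAAG, 4.55% TGACGTCA and none GCGCATGCG. Over all 32851 windows in the RefSeq table the shares, in the same order of motifs, are 32.7, 33.9, 6.02, 6.91, 1.55 and 1.45%. A match is a description of the letters and not a bound site.

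The ATP-Mg/phosphate carriers, which adjust the adenine nucleotide pool of the matrix in response to calcium, differed in direction. Slc25a24 (chr3:109030317-109075773 on GRCm39) was at 14.999, 19.9 and 22.8 RPM in MuSCs and 158, 192 and 170.1 RPM in myoblasts, 19.2 ± 3.93 against 173 ± 17.5 RPM (mean ± SD, n = 3). Every myoblast library was far above the MuSC range, 9.02-fold on average (log2 fold change 3.12 ± 0.22 (SE), adjusted p 1.5e-05), and the call held with each library left out and with the mouse as a block. Slc25a25 fell from 43.7, 28.6 and 25.6 to 18.3, 18.8 and 11.6 RPM (log2 fold change -0.96 ± 0.31 (SE), adjusted p 0.034), with no overlap. Its call was lost without MuSC replicate 4 or 5 or myoblast replicate 5 or 6 (adjusted p 0.10, 0.067, 0.056 and 0.12). Slc25a23 was at 4.904, 6.18 and 3.91 RPM in MuSCs and 1.69, 3.49 and 2.49 RPM in myoblasts, low throughout and uncalled (log2 fold change -0.77 ± 0.34 (SE), adjusted p 0.096), though its groups did not overlap. The ratio of Slc25a24 to Slc25a25 was 0.343, 0.696 and 0.891 in MuSCs and 8.63, 10.2 and 14.7 in myoblasts, higher in every myoblast library. The log2 ratio differed by 4.08, and that of Slc25a23 to Slc25a24 by -3.89 (exact permutation p = 0.1 for each, 0.15 adjusted).

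**Figure D3:**
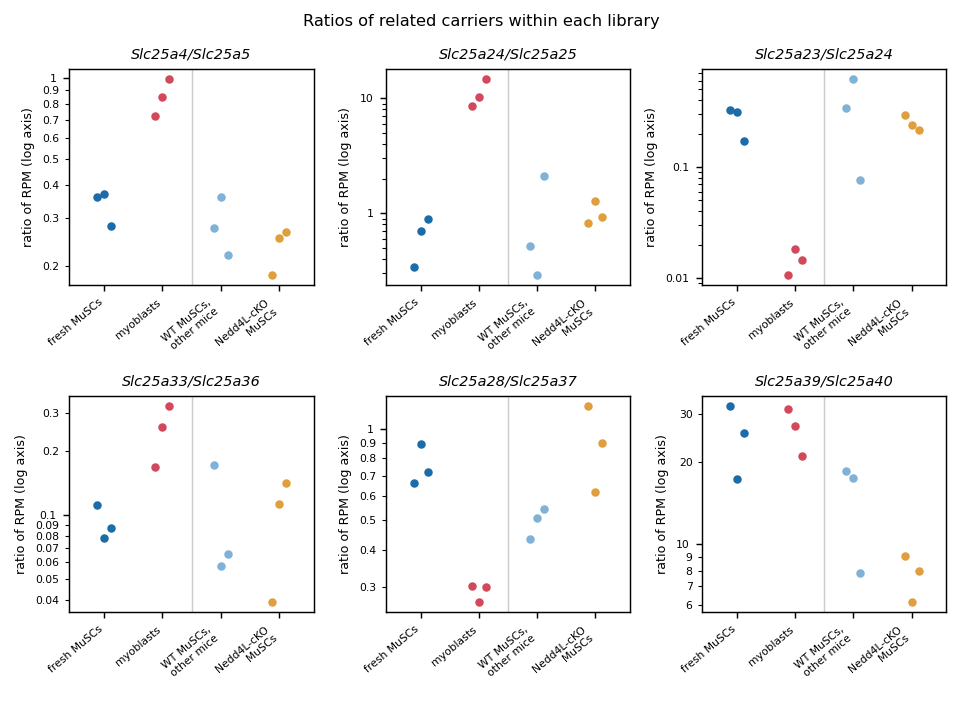
Ratio of the RPM of 2 related carriers within each library (log axis), 3 points a group, in fresh MuSCs and myoblasts of the same mice (left of the line) and in WT and Nedd4L-cKO MuSCs of other mice (right). The Slc25a4/Slc25a5 ratio is 0.280 to 0.368 in fresh MuSCs and 0.722 to 0.992 in myoblasts, and the groups right of the line overlap in each pair drawn except Slc25a28/Slc25a37.

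Among carriers of di- and tricarboxylates, Slc25a10 and Slc25a11 rose. Slc25a10, the dicarboxylate carrier that exchanges malate or succinate for phosphate (chr11:120382359-120391985 on GRCm39), was at 2.65, 12.5 and 8.72 RPM in MuSCs and 98.8, 84.1 and 55.6 RPM in myoblasts, 7.97 ± 4.99 against 79.5 ± 21.9 RPM. The lowest myoblast library was above the highest MuSC library, and the MuSC library of mouse 4 was the lowest of the 6 (log2 fold change 3.32 ± 0.47 (SE), adjusted p 0.00065, 9.97-fold in mean RPM). Slc25a11, which exchanges 2-oxoglutarate for malate in the malate-aspartate shuttle, was at 103, 88.5 and 96.8 RPM in MuSCs and 186, 152 and 145 RPM in myoblasts, higher in every myoblast library (log2 fold change 0.73 ± 0.18 (SE), adjusted p 0.012, and 0.051 without MuSC replicate 5). The citrate carrier Slc25a1 was at 12.2 to 17.9 RPM in MuSCs and 14.2 to 18.3 RPM in myoblasts (log2 fold change 0.10, 95% interval -0.52 to 0.73).

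Carriers of amino acids and of carnitine gave 7 calls among 9 tested, 5 higher and 2 lower, beside 42.8% of all tested genes (22.2% higher and 20.6% lower). Slc25a20, which brings acylcarnitines into the matrix for fatty acid oxidation, rose from 35.6, 26.2 and 28.7 to 71.5, 64.3 and 63.4 RPM, 2.203-fold (log2 fold change 1.12 ± 0.21 (SE), adjusted p 0.0030). Slc25a44, a transporter of branched-chain amino acids, rose from 8.16, 13.6 and 10.97 to 26.7, 26.5 and 24.7 RPM (log2 fold change 1.20 ± 0.28 (SE), adjusted p 0.0079). In both, the myoblast libraries lay close together and above all MuSC libraries, and the calls held with each library left out. Slc25a12, the calcium-responsive aspartate/glutamate carrier of muscle and brain, was at 24.99, 27.4 and 24.3 RPM in MuSCs and 36.1, 47.5 and 49.4 RPM in myoblasts, without overlap (log2 fold change 0.76 ± 0.23 (SE), adjusted p 0.025). Its relative Slc25a13 was at 0.584, 1.61 and 0 RPM in MuSCs and 1.805, 2.42 and 0.973 RPM in myoblasts, near 0 and overlapping. Slc25a22, a glutamate carrier, went from 12.3, 7.92 and 6.99 to 15.7, 18.02 and 16.8 RPM (log2 fold change 0.86 ± 0.30 (SE), adjusted p 0.047), while Slc25a18, the other glutamate carrier, did not exceed 0.486 RPM in any library of this table. Slc25a38, a glycine carrier needed for haem synthesis, was at 8.55 to 13.1 RPM in MuSCs and 19.1 to 20.9 RPM in myoblasts (log2 fold change 0.91 ± 0.28 (SE), adjusted p 0.027). With the mouse as a block the calls of Slc25a12, Slc25a22 and Slc25a38 were lost, at adjusted p 0.053, 0.080 and 0.053. They were also lost without 5, 5 and 4 of the 6 libraries left out one at a time, at adjusted p of up to 0.097, 0.14 and 0.086.

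The carriers of basic amino acids went the other way. Slc25a29, which carries arginine and lysine, fell from 25.5, 22.3 and 30.6 to 18.6, 7.18 and 7.49 RPM (log2 fold change -1.28 ± 0.38 (SE), adjusted p 0.024), with the myoblasts of mouse 4 at more than 2 times the level of those of mice 5 and 6. Slc25a15, the ornithine carrier of the urea cycle, fell from 62.8, 36.6 and 26.2 to 16.4, 24.03 and 17.8 RPM (log2 fold change -0.998 ± 0.34 (SE), adjusted p 0.042, and 0.059 with the mouse as a block). Both groups of MuSC values stayed above the myoblast values, and the 3 MuSC libraries of Slc25a15 were wide apart. Slc25a2, its close relative, was at 2.51, 2.07 and 0.778 RPM in MuSCs and 0.929, 0.244 and 0.277 RPM in myoblasts, with overlap (log2 fold change -0.88 ± 0.32 (SE), adjusted p 0.051, and 0.035 with the mouse as a block). The MuSC libraries of Slc25a2 alone would have met the filter on low values. Its call with the block is therefore not taken as support for a change. The call of Slc25a29 was lost without MuSC replicate 4 or 6 or myoblast replicate 5 or 6 (adjusted p 0.053, 0.082, 0.089 and 0.082), and that of Slc25a15 without any single library other than MuSC replicate 6, at adjusted p of up to 0.12. The annotated spans of Slc25a29 and Slc25a47 overlap at their 5′ ends on opposite strands of chromosome 12, but their annotated transcripts share no stretch of 31 bases on either strand.

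Of the 11 carriers of nucleotides, cofactors and glutathione, 2 were called higher and 2 lower, beside 22.2% and 20.6% of all tested genes. Slc25a36, a pyrimidine nucleotide carrier, fell from 133, 104 and 132 to 41.8, 66.9 and 50.2 RPM, 2.32 times higher in MuSCs (log2 fold change -1.22 ± 0.23 (SE), adjusted p 0.0030), and no library overlapped. Slc25a33, the other pyrimidine nucleotide carrier, was at 14.7, 8.11 and 11.5 RPM in MuSCs and 6.99, 17.3 and 16.2 RPM in myoblasts, overlapping (log2 fold change 0.17, 95% interval -0.74 to 1.07). The Slc25a33 to Slc25a36 ratio was 0.111, 0.0779 and 0.08701 in MuSCs and 0.167, 0.258 and 0.324 in myoblasts, a log2 difference of 1.38 (exact permutation p = 0.1, adjusted 0.15). Slc25a26, which brings S-adenosylmethionine to the matrix for methylation, rose from 2.55, 2.25 and 2.01 to 9.96, 8.42 and 13.6 RPM (log2 fold change 1.82 ± 0.32 (SE), adjusted p 0.0020) in every mouse. It shares 32.5% of its 31-base stretches with Lrig1, which moved the opposite way, from 69.8 to 94.0 RPM in MuSCs to 5.70 to 8.41 RPM in myoblasts. Slc25a32, a folate and FAD carrier, rose from 11.7, 5.54 and 5.02 to 17.3, 18.4 and 13.3 RPM (log2 fold change 1.11 ± 0.36 (SE), adjusted p 0.036), and the highest MuSC library came close to the lowest myoblast library. Its call was lost without MuSC replicate 5 or 6 or without any single myoblast library, at adjusted p of up to 0.11.

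Slc25a17, the peroxisomal carrier of CoA, FAD and NAD, fell from 145, 164 and 136 to 117, 92.9 and 78.99 RPM (log2 fold change -0.63 ± 0.20 (SE), adjusted p 0.034, and 0.051 with the mouse as a block), a modest difference with no overlap. The call was lost without any single library other than myoblast replicate 4, at adjusted p of up to 0.12. Slc25a39, which brings glutathione to the matrix, was at 248, 291 and 269 RPM in MuSCs and 406, 287 and 242 RPM in myoblasts, and its relative Slc25a40 at 7.77, 16.8 and 10.6 RPM in MuSCs and 13.04, 10.6 and 11.5 RPM in myoblasts. Both overlapped between the groups, and their ratio was 31.98, 17.3 and 25.4 in MuSCs and 31.1, 27.1 and 21.04 in myoblasts (exact permutation p = 0.6). The NAD carrier Slc25a51 and the CoA carriers Slc25a16 and Slc25a42 were uncalled, with log2 fold changes of -0.37, -0.24 and 0.28.

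Mitoferrins import iron into the matrix. Slc25a28 (mitoferrin 2) fell from 14.7, 11.9 and 10.98 to 5.58, 6.17 and 6.94 RPM (log2 fold change -0.90 ± 0.29 (SE), adjusted p 0.034, and 0.069 with the mouse as a block), and leaving out any single library lost the call, at adjusted p of up to 0.090. Slc25a37 (mitoferrin 1) was at 22.1, 13.3 and 15.2 RPM in MuSCs and 18.3, 22.9 and 23.1 RPM in myoblasts, overlapping (log2 fold change 0.36 ± 0.28 (SE), adjusted p 0.34). The ratio of Slc25a28 to Slc25a37 was 0.666, 0.896 and 0.724 in MuSCs and 0.304, 0.269 and 0.3004 in myoblasts, lower in all 3 myoblast libraries by 1.25 on the log2 scale (exact permutation p = 0.1, adjusted 0.15). Shared 31-base stretches make up 36.7% of Slc25a28 and 39.1% of Slc25a37, mostly with long noncoding RNAs.

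Of the carriers related to uncoupling proteins, Slc25a14 and Slc25a27 fell. Slc25a14 was at 17.8, 15.4 and 15.7 RPM in MuSCs and 4.67, 7.97 and 9.48 RPM in myoblasts (log2 fold change -1.09 ± 0.32 (SE), adjusted p 0.024), and Slc25a27 at 16.6, 13.2 and 19.2 RPM in MuSCs and 1.86, 8.43 and 7.58 RPM in myoblasts (log2 fold change -1.48 ± 0.47 (SE), adjusted p 0.032). No library overlapped in either, and the myoblasts of mouse 4 were lowest in both. Slc25a14 was no longer called without any single MuSC library or without myoblast replicate 5 (adjusted p of up to 0.060), nor Slc25a27 without any single MuSC library (up to 0.097). Slc25a30 of the same group was uncalled, at 16.2 to 25.1 RPM in MuSCs and 16.1 to 18.0 RPM in myoblasts. Slc25a46, a protein of the outer membrane that takes part in mitochondrial fission and fusion, rose from 44.2, 51.5 and 74.2 to 116, 113 and 99.5 RPM (log2 fold change 0.97 ± 0.23 (SE), adjusted p 0.0093). Slc25a45 was at 0, 0.105 and 0.848 RPM in MuSCs and 2.52, 4.88 and 4.095 RPM in myoblasts (log2 fold change 1.90 ± 0.33 (SE), adjusted p 0.0020), having passed the filter through all 3 myoblast libraries and 1 MuSC library. The myoblast libraries alone would have met the filter, so the call of Slc25a45 is not taken as support for a change. Slc25a53, whose substrate is not assigned, fell from 7.59, 12.7 and 10.03 to 3.04, 3.73 and 3.14 RPM (log2 fold change -1.35 ± 0.32 (SE), adjusted p 0.0089). The groups of Slc25a46 and Slc25a53 did not overlap, and the calls of both held with each library left out. The unassigned or less studied Slc25a35, Slc25a43, Slc25a47 and Slc25a48 were uncalled, with log2 fold changes from -0.43 to -0.11. Slc25a34 was untested, at 0, 0.0646 and 0 RPM in MuSCs and 1.49, 0.688 and 0.257 RPM in myoblasts.

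Across single left-out libraries, 12 to 20 carriers were called. Fewer libraries lower the power for every gene. The shares of all genes called in these settings are not given here, so the counts show nothing particular to carriers. The count was 12 without MuSC replicate 5, myoblast replicate 5 or myoblast replicate 6, 14 without MuSC replicate 4, 15 without MuSC replicate 6 and 20 without myoblast replicate 4. Called under every alternative in which they were tested were 9 carriers, the increases of Slc25a10, Slc25a20, Slc25a24, Slc25a26, Slc25a44, Slc25a45 and Slc25a46 and the decreases of Slc25a36 and Slc25a53. Slc25a45 was not tested where all 6 libraries had to reach the count minimum, a setting with 22 carriers called. It stays in the counts of this paragraph, though its myoblast libraries alone would have met the main filter. Requiring a log2 fold change of at least 1 in size left 12 carriers, 7 higher and 5 lower, beside 31.8% of all genes (17.2% higher and 14.6% lower). The groups did not overlap for 25 of the 41 carriers, beside 55.2% of all genes. Of the pairs not yet given, Slc25a12/Slc25a13 and Slc25a2/Slc25a15 had overlapping ratios with log2 differences of 0.029 and 0.12 (exact permutation p = 0.9 and 0.8). The Slc25a18/Slc25a22 difference of -0.74 mostly restates the level of Slc25a22, since Slc25a18 was near 0 in every library.

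Genes that bring carriers to the inner membrane or share their work changed in both directions as well. Of 7 genes for the import of carrier proteins, 2 were called higher and 2 lower, beside 22.2% and 20.6% of all tested genes. Tomm70a, the outer membrane receptor for carrier precursors, rose from 91.6, 83.2 and 89.8 to 217, 216 and 185 RPM (adjusted p 0.00066) and Timm29, a subunit of the inner membrane insertase, had a log2 fold change of 1.56 ± 0.35 (SE) (adjusted p 0.0069). Agk, a lipid kinase that is also part of the insertase, fell from 135, 153 and 122 to 77.8, 47.96 and 43.1 RPM (adjusted p 0.0033), and Timm10b had a log2 fold change of -0.85 ± 0.24 (SE) (adjusted p 0.019), while Timm22, Timm9 and Timm10 were uncalled. Among 13 other transporters of mitochondrial membranes, 4 were called higher and 3 lower, beside the same shares of all tested genes. Both subunits of the pyruvate carrier fell, Mpc1 from 363, 409 and 466 to 163, 133 and 176 RPM (log2 fold change -1.39 ± 0.19 (SE), adjusted p 0.00050) and Mpc2 with a log2 fold change of -0.77 ± 0.22 (SE) (adjusted p 0.021). The outer membrane channel Vdac1 rose (log2 fold change 1.48 ± 0.22 (SE), adjusted p 0.00079) and Vdac2 fell (-0.73 ± 0.20 (SE), adjusted p 0.018). The calcium uniporter Mcu and its regulator Micu2 were higher, with log2 fold changes of 1.55 and 1.27, as was Sfxn3, a sideroflexin, at 1.04. Of 4 further family members under other names, Ucp2 and Mtch2 were uncalled. Mtch1 was at 81.2, 77.8 and 64.2 RPM in MuSCs and 37.6, 53.7 and 44.6 RPM in myoblasts (log2 fold change -0.71 ± 0.22 (SE), adjusted p 0.028, and 0.053 with the mouse as a block, which ends the call). Ucp3 was at 0.0259, 0 and 0 RPM in MuSCs and 5.16, 0.9398 and 1.22 RPM in myoblasts, and it passed the filter on low values through its myoblast libraries alone, so its call is not counted here.

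The comparison of genotypes addressed how freshly sorted MuSCs differed between WT and Nedd4L-cKO mice. None of the 41 carriers tested was called, beside 0.784% of all genes, and limma gave an unadjusted p under 0.05 for 2 of them, beside 14.6% of all genes. The median log2 fold change of the carriers was -0.094, beside 0.002 over all genes, and single carriers ranged from -0.84 to 0.84. The 95% interval lay within 1 of 0 for 18 of the 41 carriers (43.9%), beside 47.8% of all genes, and for the others it reached a log2 change of 1 in size. Groups did not overlap for 3 carriers, Slc25a27, Slc25a28 and Slc25a43, beside 19.3% of all genes. Summed over 42 carriers, RPM was 4744, 3702 and 4075 in WT and 5489, 4181 and 3611 in Nedd4L-cKO MuSCs, overlapping. The 13 genes of the mitochondrial genome took 2.83 to 4.04% of the normalized counts in WT and 5.60 to 6.21% in Nedd4L-cKO MuSCs. Myofiber markers summed to 406 to 638 RPM in WT and 664 to 850.5 RPM in Nedd4L-cKO MuSCs, with 1 of 15 called, Actn3, which was lower (log2 fold change -1.47), 8 of 15 higher at an unadjusted p under 0.05, and none at 0. Smooth muscle and pericyte markers summed to 1095 to 1771 and 2044 to 3005 RPM, with none of 4 called and 3 of 4 higher at an unadjusted p under 0.05. Fibro-adipogenic markers summed to 718 to 2009 RPM in WT and 697 to 2634 RPM in Nedd4L-cKO MuSCs, overlapping, with the highest sum in Nedd4L-cKO replicate 1. The part of these genes in the carriers' values was not tested.

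**Figure D4:**
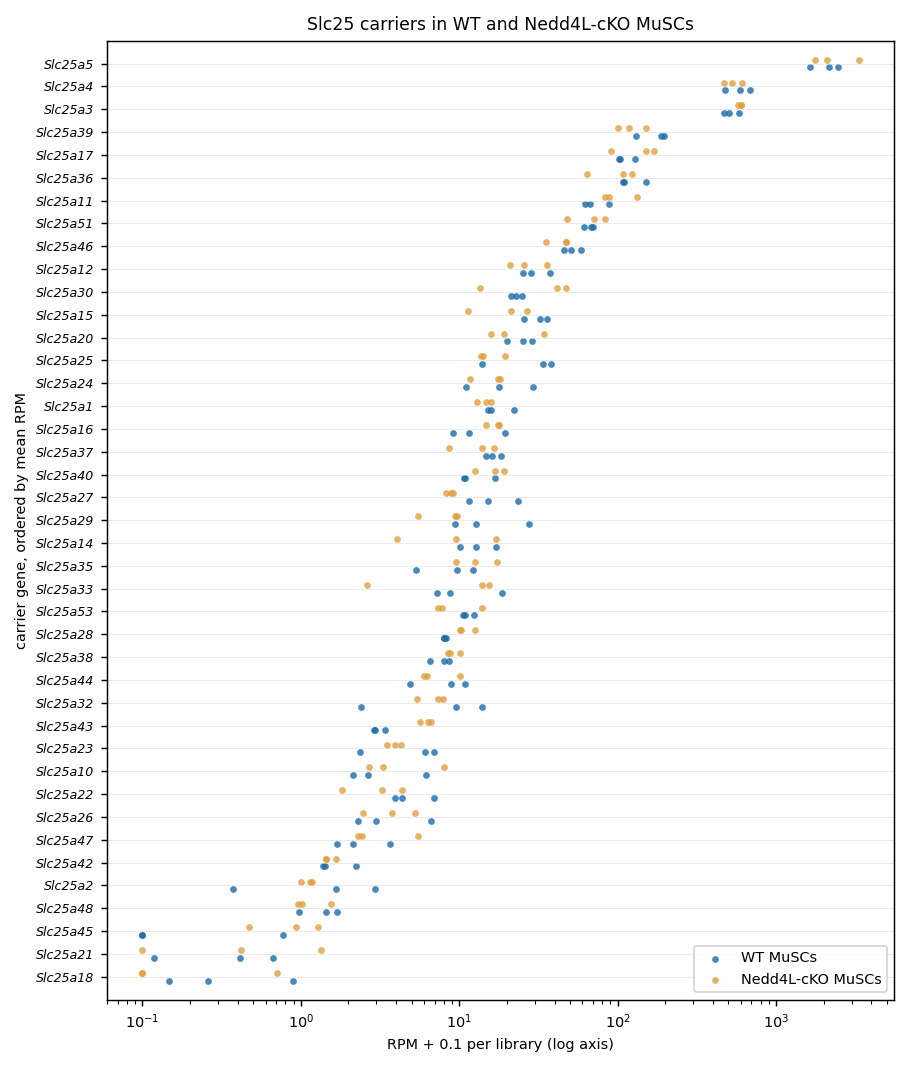
RPM + 0.1 of 41 of the 42 carriers (log axis) in every library of WT (blue) and Nedd4L-cKO (orange) MuSCs, 3 points a group, ordered by mean RPM. The groups overlap for all carriers drawn other than Slc25a27, Slc25a28 and Slc25a43, and the 3 WT points of Slc25a43 lie left of the 3 Nedd4L-cKO points.

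**Figure D5:**
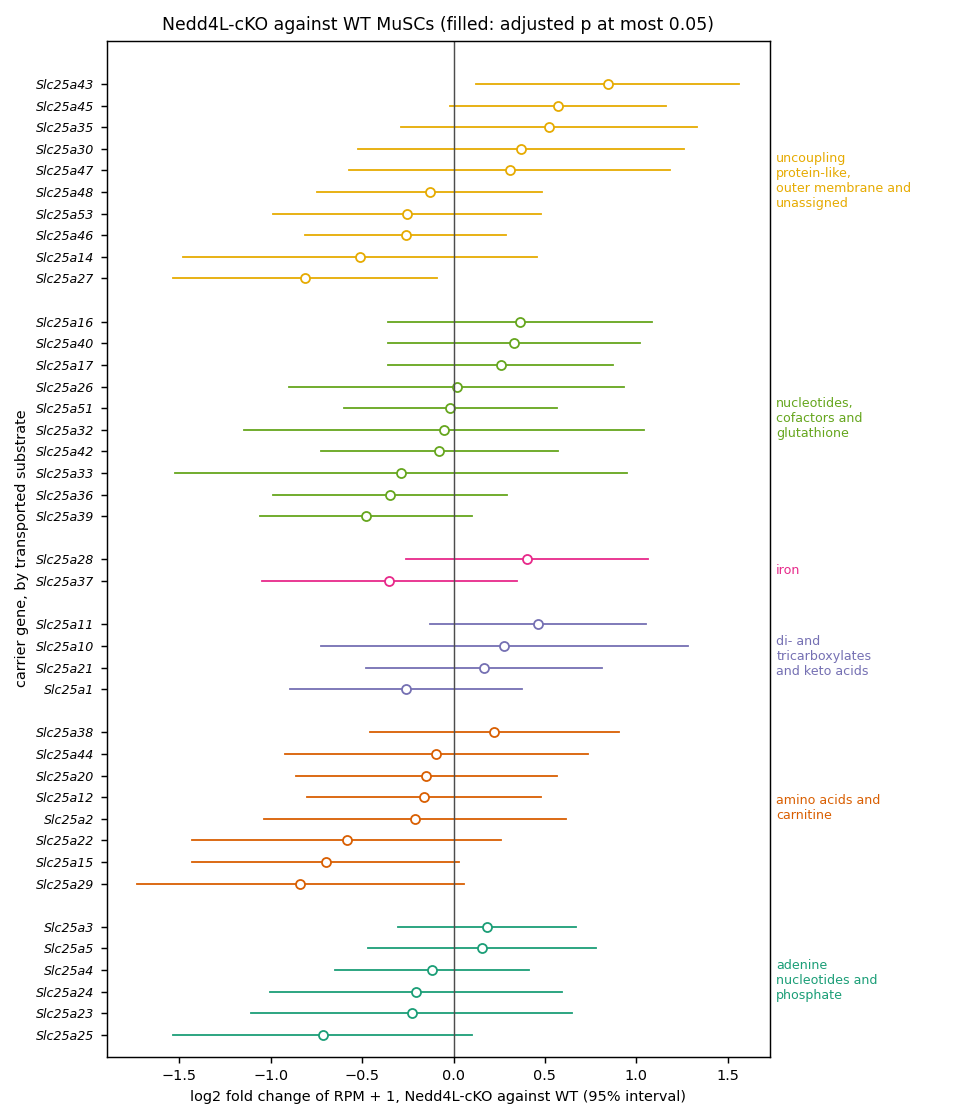
Log2 fold change of RPM + 1 in Nedd4L-cKO against WT MuSCs for 40 of the 41 carriers tested, with its 95% interval from limma, grouped by transported substrate. No point is filled, since no carrier reached an adjusted p of 0.05, and the values run from -0.84 (Slc25a29) to 0.84 (Slc25a43).

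The abundant carriers were not called between the genotypes. Slc25a5 was at 2478, 1651 and 2174 RPM in WT and 3325, 2096 and 1755 RPM in Nedd4L-cKO MuSCs (log2 fold change 0.15, 95% interval -0.47 to 0.78). Slc25a4 was at 686, 592 and 477 RPM in WT and 614, 529.5 and 468 RPM in Nedd4L-cKO MuSCs (log2 fold change -0.12, interval -0.65 to 0.42), and Slc25a3 at 584, 471 and 507 RPM in WT and 597, 597 and 573 RPM in Nedd4L-cKO MuSCs (0.18, -0.30 to 0.67). The ranges overlapped for all 3, and Slc25a5 in Nedd4L-cKO replicate 1 was above every other library. The Slc25a4 to Slc25a5 ratio was 0.277, 0.359 and 0.2195 in WT and 0.185, 0.253 and 0.267 in Nedd4L-cKO MuSCs (log2 difference -0.27, exact permutation p = 0.4, adjusted 0.8 over 8 pairs). Of the ATP-Mg/phosphate carriers, Slc25a24 was at 17.6, 11.003 and 29.3 RPM in WT and 11.7, 17.4 and 17.9 RPM in Nedd4L-cKO MuSCs, Slc25a25 at 33.6, 37.7 and 13.8 RPM in WT and 14.1, 13.5 and 19.3 RPM in Nedd4L-cKO MuSCs and Slc25a23 at 6.01, 6.803 and 2.25 RPM in WT and 3.42, 4.17 and 3.83 RPM in Nedd4L-cKO MuSCs. WT replicate 3 differed from the other WT libraries in all 3, with the highest Slc25a24 and the lowest Slc25a25 and Slc25a23, and the groups overlapped. Their log2 fold changes were -0.21, -0.72 and -0.23, with adjusted p of 0.83, 0.41 and 0.83.

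The 2 carriers with an unadjusted limma p under 0.05 did not exceed 23.4 RPM in any library. Slc25a43, whose substrate is not settled, was at 2.81, 2.84 and 3.299 RPM in WT and 6.57, 5.59 and 6.29 RPM in Nedd4L-cKO MuSCs, higher in every Nedd4L-cKO library (log2 fold change 0.84 ± 0.33 (SE), limma p 0.026 unadjusted and 0.27 adjusted). Slc25a27, related to uncoupling proteins, was at 11.4, 23.4 and 15.2 RPM in WT and 8.78, 8.18 and 8.998 RPM in Nedd4L-cKO MuSCs, lower in every Nedd4L-cKO library (log2 fold change -0.81 ± 0.33 (SE), limma p 0.030 unadjusted and 0.29 adjusted). Neither passed the threshold. These p-values depend on the scaling. With each library scaled to its own total, the unadjusted limma p was 0.053 for Slc25a43, 0.022 for Slc25a27 and 0.022 for the abundant Slc25a39, none of them called. On that scale it was also under 0.05 for Slc25a29 (0.042, log2 fold change -0.96) and Slc25a15 (0.049, -0.82), likewise uncalled. The values of Slc25a45 were 0, 0.667 and 0 RPM in WT and 0.832, 0.371 and 1.18 RPM in Nedd4L-cKO MuSCs, near 0 throughout. Slc25a15 was at 35.9, 32.2 and 25.4 RPM in WT and 11.3, 21.2 and 26.5 RPM in Nedd4L-cKO MuSCs and Slc25a29 at 12.7, 27.4 and 9.25 RPM in WT and 9.33, 9.61 and 5.39 RPM in Nedd4L-cKO MuSCs. Both overlapped, with log2 fold changes of -0.70 and -0.84 and adjusted p of 0.36 and 0.38. For Slc25a39 the libraries gave 197, 187 and 131 RPM in WT and 150.5, 118 and 100.1 RPM in Nedd4L-cKO MuSCs, and for its relative Slc25a40 10.6, 10.7 and 16.7 RPM in WT and 16.6, 19.1 and 12.5 RPM in Nedd4L-cKO MuSCs. Their ratio was 18.5, 17.5 and 7.87 in WT and 9.05, 6.16 and 7.996 in Nedd4L-cKO MuSCs, overlapping (log2 difference -0.81, exact permutation p = 0.2). Slc25a11 was at 88.04, 66.9 and 62.05 RPM in WT and 132, 82.8 and 88.2 RPM in Nedd4L-cKO MuSCs, overlapping, with a log2 fold change of 0.46 (adjusted p 0.46).

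Among the remaining pairs, the mitoferrin ratio did not overlap between the genotypes. Slc25a28 was at 7.898, 8.12 and 7.97 RPM in WT and 10.1, 10.2 and 12.5 RPM in Nedd4L-cKO MuSCs, and Slc25a37 at 18.2, 15.96 and 14.7 RPM in WT and 8.46, 16.5 and 13.9 RPM in Nedd4L-cKO MuSCs. The Slc25a28 to Slc25a37 ratio was 0.433, 0.508 and 0.543 in WT and 1.19, 0.619 and 0.9001 in Nedd4L-cKO MuSCs, higher in all 3 Nedd4L-cKO libraries by 0.75 on the log2 scale, which did not pass the test (exact permutation p = 0.1, the smallest possible, and 0.4 adjusted). Slc25a33 was at 18.5, 8.698 and 7.18 RPM in WT and 2.505, 13.9 and 15.3 RPM in Nedd4L-cKO MuSCs and Slc25a36 at 107, 150.5 and 109.8 RPM in WT and 63.9, 123 and 108 RPM in Nedd4L-cKO MuSCs, both overlapping, and their ratio differed by 0.061 (exact permutation p = 1.0). Slc25a2 was at 2.85, 0.2704 and 1.58 RPM in WT and 1.08, 1.04 and 0.908 RPM in Nedd4L-cKO MuSCs, Slc25a22 at 6.88, 3.84 and 4.24 RPM in WT and 1.72, 3.16 and 4.23 RPM in Nedd4L-cKO MuSCs, and Slc25a12 at 25.3, 28.3 and 37.4 RPM in WT and 25.4, 35.7 and 20.8 RPM in Nedd4L-cKO MuSCs, each overlapping. The log2 ratio differences of Slc25a23/Slc25a24, Slc25a24/Slc25a25 and Slc25a2/Slc25a15 were -0.023, 0.51 and 0.49 (exact permutation p = 1.0, 0.6 and 0.6). Slc25a18 did not pass the filter and was at 0 in 2 of the 3 Nedd4L-cKO libraries. On the scale used for all pairs, its ratio to Slc25a22 was higher in all 3 Nedd4L-cKO libraries. The log2 difference was 0.44 (exact permutation p = 0.1, adjusted 0.4). Without a pseudocount the ratio overlapped between the genotypes. Slc25a17 was at 102, 103 and 128 RPM in WT and 170.2, 150.5 and 90.3 RPM in Nedd4L-cKO MuSCs (log2 fold change 0.26, 95% interval -0.36 to 0.87). The 2 carriers with the largest increases in culture, Slc25a10 and Slc25a24, had log2 fold changes of 0.28 and -0.21 between genotypes, with 95% intervals of -0.73 to 1.28 and -1.01 to 0.59.

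None of the 7 import genes, the 13 other mitochondrial transporters or the 3 tested family members under other names was called between genotypes, beside 0.784% of all genes. Among the transporters, Mcu, Micu2 and Sfxn3 had an unadjusted limma p under 0.05, all with lower values in Nedd4L-cKO MuSCs. Mcu was at 65.05, 64.998 and 42.9 RPM in WT and 26.6, 32.6 and 48.9 RPM in Nedd4L-cKO MuSCs, overlapping (log2 fold change -0.68 ± 0.30 (SE), adjusted p 0.32). Micu2 was at 59.4, 47.1 and 43.9 RPM in WT and 38.4, 27.4 and 30.3 RPM in Nedd4L-cKO MuSCs (limma adjusted p 0.30). Sfxn3 was at 35.5, 30.1 and 26.0 RPM in WT and 13.5, 19.3 and 18.2 RPM in Nedd4L-cKO MuSCs (limma adjusted p 0.21). Neither Micu2 nor Sfxn3 overlapped. Ucp2 was at 37.4, 19.4 and 16.9 RPM in WT and 9.95, 7.44 and 11.8 RPM in Nedd4L-cKO MuSCs, without overlap (log2 fold change -1.19 ± 0.35 (SE), adjusted p 0.15).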

How the data were processed

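RNA of 1000 sorted or cultured cells per library was amplified with SMART-Seq HT and made into libraries with Nextera XT, which does not mark the strand. Per the labels and the study's methods, the authors quantified transcripts with kallisto 0.46.1 on GENCODE vM28 and normalized gene counts with DESeq2, separately for each table. The deposited values are these normalized counts, a signal that is not whole reads, so count models were not used and depth is unknown. The deposited tables also hold the authors' fold changes and p-values, which were not used, and 18 per-sample columns of other samples, likewise unused.

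Normalized counts were expressed per 1000000 of the mean library total of their table (RPM). A gene was tested if 3 or more of the 6 libraries reached 10 normalized counts, on log2(RPM + 1) with limma 3.58.1 in R 4.3.3, with mean-variance trend and robust moderation, after a check on simulated data. Adjusted p-values are Benjamini-Hochberg values over all tested genes, called at 0.05. Ratios of related carriers were tested with exact two-sided permutation tests (Python 3.11.15, scipy 1.17.1). These tests permuted the 6 libraries of a comparison freely and did not use the pairing by mouse in culture. Alternatives changed the scaling, pseudocount, filter, moderation, call rule and replicates.

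In culture, MuSCs and myoblasts with the same number come from the same mouse. The correlations of their deviations from the group means were -0.031, -0.0050 and 0.018. The main model has no block, and the adjusted p with the mouse as a block is given beside a named gene where it changes a call. Carriers and gene lists were chosen with earlier results of these data known. Given with every library are called carriers up to the 8 largest changes in each direction, between genotypes those of smallest unadjusted p up to 8, both genes of each pair of related carriers, and the 5 carriers highest per length. Other carriers are given by counts and ranges. Values of 1 carrier and 1 other transporter are not reported here, though both stay in the counts and sums. Gene positions are from GENCODE M39 (GRCm39) and windows before gene starts from RefSeq (GRCm38.p6).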

Additional observations from a re-analysis of the deposited data

How the results depend on the processing

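Leaving out 1 library at a time gave 12 to 20 called carriers between myoblasts and MuSCs and 0 between genotypes, and median log2 fold changes of the carriers of -0.040 to 0.042 and -0.10 to 0.0060. With each library scaled to its own total the medians were 0.18 and -0.20, and without the mitochondrial genes in that total the first was also 0.18. The medians of all genes moved too, from 0.039 and 0.0015 in the main fit to 0.14 and -0.091 with own totals. A log2 fold change of at least 1 left 12 calls in culture, and an unadjusted p under 0.05 gave 2 between genotypes. With the replicate number as a block, 18 carriers, Slc25a2 among them, were called in culture and 0 between genotypes. For left-out libraries and for the block, the shares of all genes called are not given here. The numbers of WT and Nedd4L-cKO mice name no shared origin, and the correlations of their deviations were 0.019, -0.023 and -0.18. Some log2 ratio differences changed sign with the pseudocount. With 0.1 RPM they became -1.04 for Slc25a12/Slc25a13 and -0.71 for Slc25a2/Slc25a15 in culture, and -0.0096 for Slc25a33/Slc25a36 and -0.015 for Slc25a18/Slc25a22 between genotypes, and with 5 RPM 0.024 for Slc25a23/Slc25a24 between genotypes. With single libraries left out, differences ran from -0.27 to 0.34 (Slc25a12/Slc25a13), -0.096 to 0.30 (Slc25a39/Slc25a40) and -0.19 to 0.39 (Slc25a2/Slc25a15) in culture, and from -0.76 to 0.54 (Slc25a23/Slc25a24), -0.077 to 1.28 (Slc25a24/Slc25a25) and -0.23 to 0.52 (Slc25a33/Slc25a36) between genotypes. Uncalled carriers that changed sign in this way had log2 fold changes of -0.047 to 0.55 (Slc25a33), -0.029 to 0.34 (Slc25a39) and -0.18 to 0.33 (Slc25a40) in culture. Between genotypes they were -0.65 to 0.15 (Slc25a2), -0.26 to 0.0060 (Slc25a4), -0.11 to 0.35 (Slc25a5), -0.36 to 0.010 (Slc25a12), -0.62 to 0.0074 (Slc25a23), -0.54 to 0.13 (Slc25a24) and -0.68 to 0.43 (Slc25a33). The cause of these changes was not tested, beyond fewer libraries where one was left out. Over all alternatives the 30 carriers named with every library in culture lost a call in 67 cases (13 carriers) and gained one in 4 (2 carriers). Leaving out carriers that share over 10% of their 31-base stretches, an alternative chosen after seeing the data, left 19 of the 23 calls in culture. The fit was not repeated, so the calls not kept are only those of the removed Slc25a5, Slc25a26, Slc25a28 and Slc25a36. The share called among all genes with as little sharing is not given here. The read depth is unknown, so counting error cannot be given.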

Other observations

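WT MuSCs of both cohorts, sorted from other mice and normalized in separate tables, can be set side by side for 40 carriers. The mean RPM of these carriers, on a log2 scale, had a Pearson r of 0.987 and a Spearman rho of 0.970 across carriers, beside 0.964 and 0.962 across 14343 genes, a description over genes that are not independent and share their length and base composition between the tables. The log2 fold changes in culture and between genotypes, which share no libraries, had a Pearson r of 0.28 and a Spearman rho of 0.30 across the 40 carriers, beside 0.053 and 0.0038 across all genes, and the same sign for 18 carriers (45.0%), beside 48.0% of all genes. Across the 23 carriers called in culture the values were 0.48 and 0.56 with the same sign for 12 (52.2%), beside 0.082 and 0.055 and 48.2% of all genes called in culture. These are descriptions across genes, with no test.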
